A study of Homo sapiens with 12 samples.

Results

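The genes described here are 40 genes of mitosis and of the G2 to M transition of the cell cycle: mitotic cyclins and kinases, the spindle checkpoint, kinesins, kinetochore proteins and proteins of the spindle and of cytokinesis. They were chosen by name rather than by a cut on their values, though with earlier results of these data known. Each of the 40 was found among the 60664 genes of the count table. All 40 passed the filter on low counts and were tested. RNA came from a pair of human B-cell acute lymphoblastic leukaemia lines labelled as blood lymphoblasts of wild-type genotype: TOM-1, which carries the Philadelphia chromosome, and RS4;11, which carries a rearrangement of KMT2A. Log-phase cells of each line received either no drug or ADI-PEG20 at 1000 ng/ml, a pegylated arginine deiminase that depletes arginine from the medium, and were harvested after 24 h. Each of the 4 groups has 3 poly(A) libraries. No label says whether the 3 libraries of a group came from separate cultures, so p-values measure only the spread between these libraries, which may be technical. In bulk RNA, fewer cells in mitosis and less RNA of a gene per cell cannot be told apart.

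A cell enters mitosis when CDK1, bound to cyclin A or cyclin B, is activated by CDC25 phosphatases and supported by the PLK1 and Aurora kinases. Kinesins and spindle proteins then build the spindle, kinetochores attach the chromosomes to it, and the spindle checkpoint holds the anaphase-promoting complex (APC/C) in check until every chromosome is attached. The APC/C with CDC20 then marks securin and cyclin B for destruction, the sister chromatids part and the cell divides. Most of these genes are transcribed late in the cell cycle, many of them through promoter elements called the cell cycle genes homology region (CHR) and the CCAAT box, and their summed RNA is often read as a measure of proliferation in leukaemia cells.

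Total counts ran from 18958144 to 35956959 per library, and the 40 genes took between 0.336% and 0.633% of them. TOM-1 control replicate 3 stood apart: its reads fell on 14963 genes, where the remaining 11 libraries had 19857 to 21997. Compared with its fellow controls, chi-square per degree of freedom was 303 and 330, and at most 13.9 in any other pair within a group. Each comparison is therefore given with all 12 libraries and without this one, which leaves 2 control libraries in TOM-1. All 11 markers of the B lineage were detected in every group, as the labelled cell type would have, with summed levels between 7997 and 8700 CPM (counts scaled to library size) in TOM-1 control, 8131 and 8368 with ADI-PEG20, 2390 and 2555 in RS4;11 control and 2535 and 2772 with ADI-PEG20. Of 5 erythroid markers none exceeded 0.909 CPM in sum, of 6 stromal markers only COL1A1 and PDGFRB had over 3 counts (summed 2.70 to 46.0 CPM), of 8 myeloid markers the sum was 10.2 to 26.7 CPM, and of 7 T-lineage markers it was 129.1 to 536.8 CPM, carried by TRAC and LCK. The T-lineage genes CD3D, CD3G and CD2, the myeloid genes S100A8, S100A9 and FCGR3A and the stromal genes COL1A2, COL3A1, DCN and LUM had 3 counts or fewer in every library. The stromal sum, carried by PDGFRB, was lower in treated TOM-1 (2.70 to 3.74 CPM) than in control (6.12 to 11.5 CPM), and its part in the results below was not tested.

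Promoter sequences are shown for the 5 genes whose response differed between the lines and for KIF20A, the gene with the largest deficit in treated TOM-1 against treated RS4;11. Each line gives 120 bases before and 30 bases after a RefSeq transcription start on GRCh38.p14, written 5′ to 3′ on the gene's strand, and capitals mark the CHR (TTTGAA, or TTCAAA on the other strand) and the CCAAT box (CCAAT, or ATTGG on the other strand).
NDC80, chr18:2571437-2571586, plus strand: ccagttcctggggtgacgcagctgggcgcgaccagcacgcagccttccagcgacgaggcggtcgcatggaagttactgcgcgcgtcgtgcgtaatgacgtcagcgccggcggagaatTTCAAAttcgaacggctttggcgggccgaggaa
HMMR, chr5:163460512-163460661, plus strand: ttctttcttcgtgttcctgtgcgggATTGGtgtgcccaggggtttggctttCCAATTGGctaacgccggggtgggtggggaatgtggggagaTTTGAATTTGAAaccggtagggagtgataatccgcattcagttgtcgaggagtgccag
CCNB1, chr5:69167030-69167179, plus strand: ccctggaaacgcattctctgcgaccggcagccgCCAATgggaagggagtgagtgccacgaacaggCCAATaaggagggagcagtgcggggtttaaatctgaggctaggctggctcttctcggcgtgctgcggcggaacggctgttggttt
CCNF, chr16:2429327-2429476, plus strand: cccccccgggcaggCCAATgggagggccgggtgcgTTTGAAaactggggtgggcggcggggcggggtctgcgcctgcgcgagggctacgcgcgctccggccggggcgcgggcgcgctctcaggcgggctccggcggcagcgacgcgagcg
MAD2L1, chr4:120066819-120066968, minus strand: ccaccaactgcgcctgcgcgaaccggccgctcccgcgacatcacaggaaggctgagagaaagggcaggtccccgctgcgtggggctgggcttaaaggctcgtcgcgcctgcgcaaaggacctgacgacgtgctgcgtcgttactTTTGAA
KIF20A, chr5:138178992-138179141, plus strand: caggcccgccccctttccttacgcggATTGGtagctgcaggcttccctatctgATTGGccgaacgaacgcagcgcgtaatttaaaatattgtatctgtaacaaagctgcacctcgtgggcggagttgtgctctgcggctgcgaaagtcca
NDC80 and HMMR, which rose in treated TOM-1, both hold a CHR close to the start, and in HMMR it stands in a pair of adjoining copies. CCNF and MAD2L1, which fell, hold a CHR as well, in MAD2L1 downstream of the start, whereas CCNB1 and KIF20A show a pair of CCAAT boxes each and no CHR in these letters. In HMMR a CCAAT and an ATTGG overlap by 2 bases and both were counted.

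The RefSeq promoter table (250 bases before to 50 after a start) held 34 of the 40 genes with 44 promoters; AURKA, BIRC5, FOXM1, TPX2, TTK and UBE2C were not matched. A CHR on either strand was found in 27 of the 44 (61.4%), against 15.2% of all 35116 promoters of that length. Restricted to the last 100 bases of the window, the share was 45.5% against 4.62%. The CCAAT box was found in 33 of 44 (75%), against 34.6% of all promoters. Among the genes called in TOM-1, a CHR was present for 2 of the 3 that rose and for 2 of the 5 matched genes that fell, and a CCAAT box for 2 of 3 and 5 of 5. A match describes the letters of the window only.

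ADI-PEG20 moved members of this list in both directions in TOM-1. With all libraries 3 genes rose (NDC80, HMMR and BUB1) and 7 fell (PTTG1, BIRC5, CCNF, MAD2L1, CCNB1, KIF20A and UBE2C), so that 10 of 40 were called, beside 31.9% of all 17349 tested genes (15.9% higher, 15.9% lower). Without TOM-1 control replicate 3 the count was 18 of 40 (7 higher, 11 lower), beside 41.6% of 18321 genes (21.8% higher, 19.8% lower), and all 10 genes were called again with the same sign. The median log2 fold change of the 40 genes was 0.03, and 0.05 over all genes tested; without that library the medians were -0.11 and 0.00. The libraries of both groups did not overlap for 10 genes upward and 11 downward, where 46.2% of all genes did not overlap, and for 13 and 16 without control replicate 3 (59% of all genes). Calls rest on edgeR's quasi-likelihood test with Benjamini-Hochberg adjustment over all tested genes at 0.05, and SE is the standard error of the log2 fold change.

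The summed level of the 40 genes, as TMM-scaled CPM, was 5240, 5148 and 4119 in TOM-1 control replicates 1 to 3 and 4933, 4982 and 4871 with ADI-PEG20. Replicate 3 of the control was the lowest of the 12 libraries, and the treated libraries lay below the other control libraries. That order turns with the scaling: as CPM scaled to all counts, without TMM, the control sums were 5128, 5082 and 3362 and the treated sums 5269, 5292 and 5286, above every control library. Without TOP2A, MKI67 and CENPF the control sums were 3489, 3408 and 3454 and the treated sums 3353, 3446 and 3300, which overlap.

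**Figure D1:**
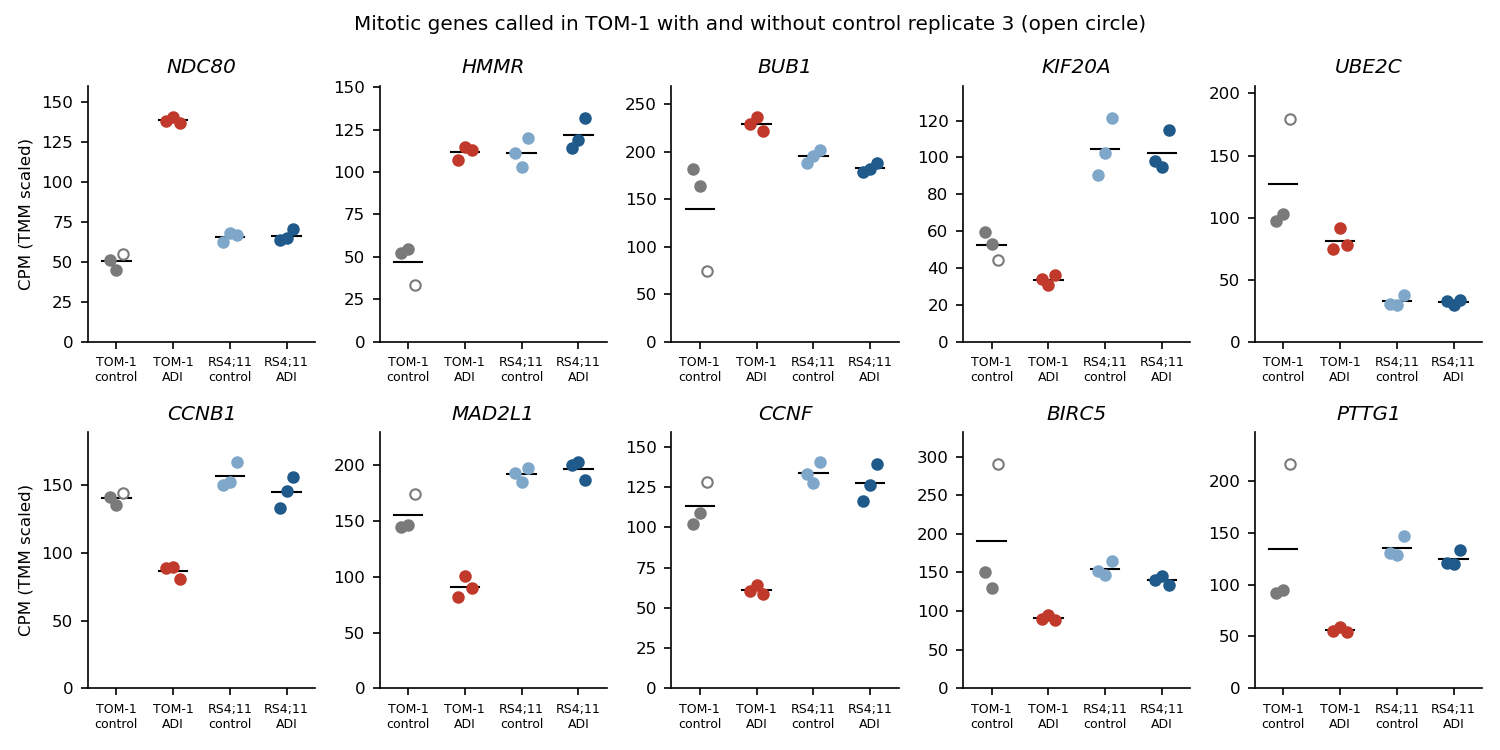
TMM-scaled CPM (y axis, from 0) of the 10 genes called in TOM-1 with and without control replicate 3, in each of the 4 groups (x axis). Points are libraries, bars are group means, and the open circle is TOM-1 control replicate 3, which lies low for BUB1 (74.3 CPM) and high for PTTG1 (216.0 CPM), while treated TOM-1 lies above control for NDC80, HMMR and BUB1 and below it for the other 7 genes.

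Among the cyclins, CDK1 and its activators, 2 of 7 genes fell in TOM-1 and none rose, with or without control replicate 3. CCNB1 (ENSG00000134057, chromosome 5, 69167010 to 69178245, plus strand, GENCODE 29 on GRCh38) encodes cyclin B1, the partner of CDK1 at entry into mitosis. It stood at 141.8, 135.4 and 144.3 CPM in TOM-1 control and at 89.2, 89.6 and 80.9 CPM with ADI-PEG20. Every treated library lay below every control library, and control replicate 3 was in the range of its group. CCNB1 fell by 0.70 on the log2 scale (SE 0.11, edgeR adjusted p = 0.000529). Without that library the fall was 0.68 in size (log2 -0.68, adjusted p = 2.08e-07).

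CCNF (ENSG00000162063, chromosome 16, 2429394 to 2458854, plus strand) encodes cyclin F, the substrate receptor of a ubiquitin ligase that acts in G2. Its control libraries had 102.2, 108.6 and 128.0 CPM and its treated libraries 60.7, 64.3 and 58.3 CPM, with no overlap. The log2 fold change was -0.89 (SE 0.12, edgeR adjusted p = 0.000265), and -0.79 without control replicate 3. On the opposite strand 11.8% of its exonic bases belong to other genes, and the use of strand in counting is not given.

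CDK1 itself, the kinase that drives mitosis, had 138.7, 126.9 and 125.8 CPM in control and 127.2, 122.6 and 118.8 CPM with ADI-PEG20, ranges that overlap. Its log2 fold change was -0.09 (SE 0.10, edgeR adjusted p = 0.559). The remaining genes of this group were not called in either fit: CCNB2 (cyclin B2) had -0.30, and -0.12 without control replicate 3. CDC25B and CDC25C, phosphatases that activate CDK1, had -0.18 and 0.06, and -0.09 and 0.27 without it. CCNA2 (cyclin A2) changed sign with that library, from 0.19 to -0.01, since control replicate 3 had 89.9 CPM against 140.0 and 151.2 in the others.

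Of the 3 genes of APC/C activation and sister separation, 2 fell. PTTG1 (ENSG00000164611, chromosome 5, 160421822 to 160428744, plus strand) encodes securin, which holds separase inactive until anaphase. It had 91.6, 94.5 and 216.0 CPM in control and 54.9, 58.6 and 54.4 CPM with ADI-PEG20. The treated libraries lay below all controls, but replicate 3 of the control was far above its fellows, and the log2 value of -1.26 (SE 0.27, edgeR adjusted p = 0.00412) became -0.74 (adjusted p = 8.26e-08) without it. In a fit on only the 6 TOM-1 libraries the PTTG1 call was lost (-1.30, adjusted p = 0.0513). UBE2C, the ubiquitin-conjugating enzyme of the APC/C, had 97.4, 103.0 and 179.8 CPM in control and 74.8, 91.4 and 78.1 CPM with ADI-PEG20. It fell by 0.64 (SE 0.21, edgeR adjusted p = 0.0383). Control replicate 3 left out, the value was -0.30 (adjusted p = 0.0228). The UBE2C call was lost when TOM-1 ADI-PEG20 replicate 1 or 3 or RS4;11 ADI-PEG20 replicate 1 was left out (highest adjusted p = 0.114), and when TOM-1 was fitted by itself (-0.68, adjusted p = 0.131). CDC20, the activator of the APC/C, had -0.38 with all libraries and -0.11 without control replicate 3, and was called in neither fit.

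None of the 4 mitotic kinases was called in TOM-1 with or without control replicate 3. PLK1, the kinase of spindle assembly and mitotic entry, had 99.7, 90.8 and 127.4 CPM in control and 92.0, 101.5 and 83.3 CPM with ADI-PEG20, which overlap (log2 -0.20, SE 0.15, edgeR adjusted p = 0.364). AURKA, the Aurora kinase of the spindle poles, had 44.8, 43.6 and 56.8 CPM in control and 48.5, 54.4 and 50.1 CPM with the drug. Its treated libraries were above control replicates 1 and 2 and below replicate 3, and log2 values were 0.07 (SE 0.13, edgeR adjusted p = 0.726) and, without that library, 0.20 (adjusted p = 0.0827). AURKB, the kinase of the chromosomal passenger complex, had -0.49 and, without control replicate 3, -0.16. NEK2, a centrosome kinase, was at 0.02 and -0.04.

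The spindle checkpoint genes split. MAD2L1 (ENSG00000164109, chromosome 4, 120055608 to 120067074, minus strand) encodes MAD2, the checkpoint protein that binds CDC20. It had 144.8, 147.0 and 174.8 CPM in control and 82.3, 100.5 and 89.6 CPM with ADI-PEG20, with no overlap. It fell by 0.78 on the log2 scale (SE 0.12, edgeR adjusted p = 0.000493), and by 0.69 without control replicate 3. BUB1 (ENSG00000169679, chromosome 2, 110637698 to 110678114, minus strand), a checkpoint kinase of the kinetochore, went the other way, with 181.9, 164.0 and 74.3 CPM in control and 229.3, 236.7 and 221.7 CPM with ADI-PEG20. All treated libraries were above all controls. Its rise was 0.71 (SE 0.24, edgeR adjusted p = 0.0426) and 0.40 (SE 0.06, adjusted p = 2.49e-05) without control replicate 3; leaving out any single library of treated TOM-1 or of RS4;11 ended the call (adjusted p between 0.0635 and 0.119), as did fitting TOM-1 by itself (0.68, adjusted p = 0.172). BUB1B, which encodes the checkpoint protein BUBR1, was at 0.03 with all libraries and at -0.32 (adjusted p = 0.00059) without control replicate 3, in which it had 42.5 CPM against 123.8 and 116.1. TTK, the checkpoint kinase MPS1, had 0.37 and 0.12 and was called in neither fit.

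Of 5 kinesins, KIF20A (ENSG00000112984, chromosome 5, 138178719 to 138187715, plus strand), a kinesin of the central spindle, fell in TOM-1. It had 59.7, 53.2 and 44.5 CPM in control and 33.9, 30.9 and 36.0 CPM with ADI-PEG20, with no overlap. Its log2 fold change was -0.64 (SE 0.15, edgeR adjusted p = 0.00709), and -0.75 without control replicate 3. KIF11, the motor Eg5 that pushes the spindle poles apart, was called without that library only (0.24, adjusted p = 0.00617), and had 0.50 (adjusted p = 0.0847) with it. KIF23, the kinesin of the centralspindlin complex, went from 0.04 to -0.17 without being called. The microtubule depolymerase KIF2C had -0.31 and -0.19, and the chromokinesin KIF4A had -0.02 and -0.17.

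NDC80 had the largest rise of the 40 genes in TOM-1. It encodes the subunit of the outer kinetochore that grips microtubules (ENSG00000080986, chromosome 18, 2571511 to 2616635, plus strand). Control libraries had 51.2, 45.1 and 54.7 CPM and treated libraries 138.1, 140.5 and 136.4 CPM. The groups lay far apart, control replicate 3 was close to its fellows, and the change was 2.75-fold (log2 1.46, SE 0.11, edgeR adjusted p = 6.26e-06), or 2.86-fold without that library. NUF2, its partner in the same complex, had 58.0, 53.5 and 55.1 CPM in control and 69.1, 67.1 and 63.8 CPM with ADI-PEG20, a log2 fold change of 0.26 (adjusted p = 0.0701) that was called without control replicate 3 (0.25, adjusted p = 0.0148). CENPE, the kinetochore motor, had 0.96 (adjusted p = 0.0674) with all libraries and 0.56 (adjusted p = 0.00198) without control replicate 3, in which it had 23.6 CPM against 83.5 and 88.5. CENPF, a large kinetochore protein, turned from 0.07 to -0.28 (adjusted p = 0.0403), and DESeq2's Wald test did not call it (-0.29, adjusted p = 0.133). CENPA, the histone H3 variant of the centromere, turned from -0.11 to 0.23 and was called in neither fit.

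HMMR was the other large rise. It encodes a microtubule-binding protein of the spindle poles that is also known as a hyaluronan receptor (ENSG00000072571, chromosome 5, 163460203 to 163491945, plus strand). It had 52.1, 54.7 and 33.5 CPM in control and 107.1, 114.9 and 113.1 CPM with ADI-PEG20. No control library came near the treated ones, and the change was 2.39-fold (log2 1.25, SE 0.17, edgeR adjusted p = 0.00023), or 2.09-fold without control replicate 3 (adjusted p = 9.01e-10). The other spindle assembly genes moved little: TPX2, which activates AURKA, had 0.09 and 0.04, and DLGAP5, a protein of spindle fibres at kinetochores, 0.07 and 0.05. GTSE1, a microtubule-binding protein, was called only without control replicate 3 (-0.27, adjusted p = 0.016). ASPM, a spindle pole protein, turned from 0.20 to -0.19 uncalled.

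Among the genes of the midzone and cytokinesis, BIRC5 (ENSG00000089685, chromosome 17, 78214186 to 78225636, plus strand) fell. It encodes survivin, a subunit of the chromosomal passenger complex. It had 151.0, 129.3 and 291.0 CPM in control and 89.8, 94.4 and 88.6 CPM with ADI-PEG20. The treated libraries lay below all controls, replicate 3 of the control was far above the others, and the log2 value of -1.07 (SE 0.24, edgeR adjusted p = 0.00521) was -0.63 without it (adjusted p = 6.17e-07). The BIRC5 call was lost when TOM-1 was fitted by itself (-1.11, adjusted p = 0.0588). ANLN (anillin, a scaffold of the contractile ring) had 0.28 and 0.04. ECT2, the exchange factor that activates RhoA at the cell equator, turned from 0.06 to -0.12. PRC1, a microtubule bundler, is uncertain, since 57.6% of its exonic bases lie in another gene model on the same strand (ENSG00000284946) and it had only 17 to 88 counts per library.

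Proliferation markers did not move as a block. TOP2A, the DNA topoisomerase of chromosome condensation, had 802.5, 786.0 and 322.3 CPM in control and 642.5, 641.8 and 625.0 CPM with ADI-PEG20. The treated libraries fell between control replicate 3 and the other controls, so that the log2 fold change was -0.00 (SE 0.25) with all libraries and -0.32 (SE 0.05, edgeR adjusted p = 2.54e-05) without that library. MKI67, which encodes Ki-67, had 597.7, 604.9 and 219.4 CPM in control and 646.1, 609.9 and 656.2 CPM with ADI-PEG20. It was called in neither fit, at 0.43 (SE 0.28, edgeR adjusted p = 0.287) and 0.08 (SE 0.07, adjusted p = 0.441). FOXM1, a transcription factor of G2/M genes, was at 0.38 (adjusted p = 0.0628) and, called, at 0.22 (adjusted p = 0.022) without control replicate 3.

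**Figure D2:**
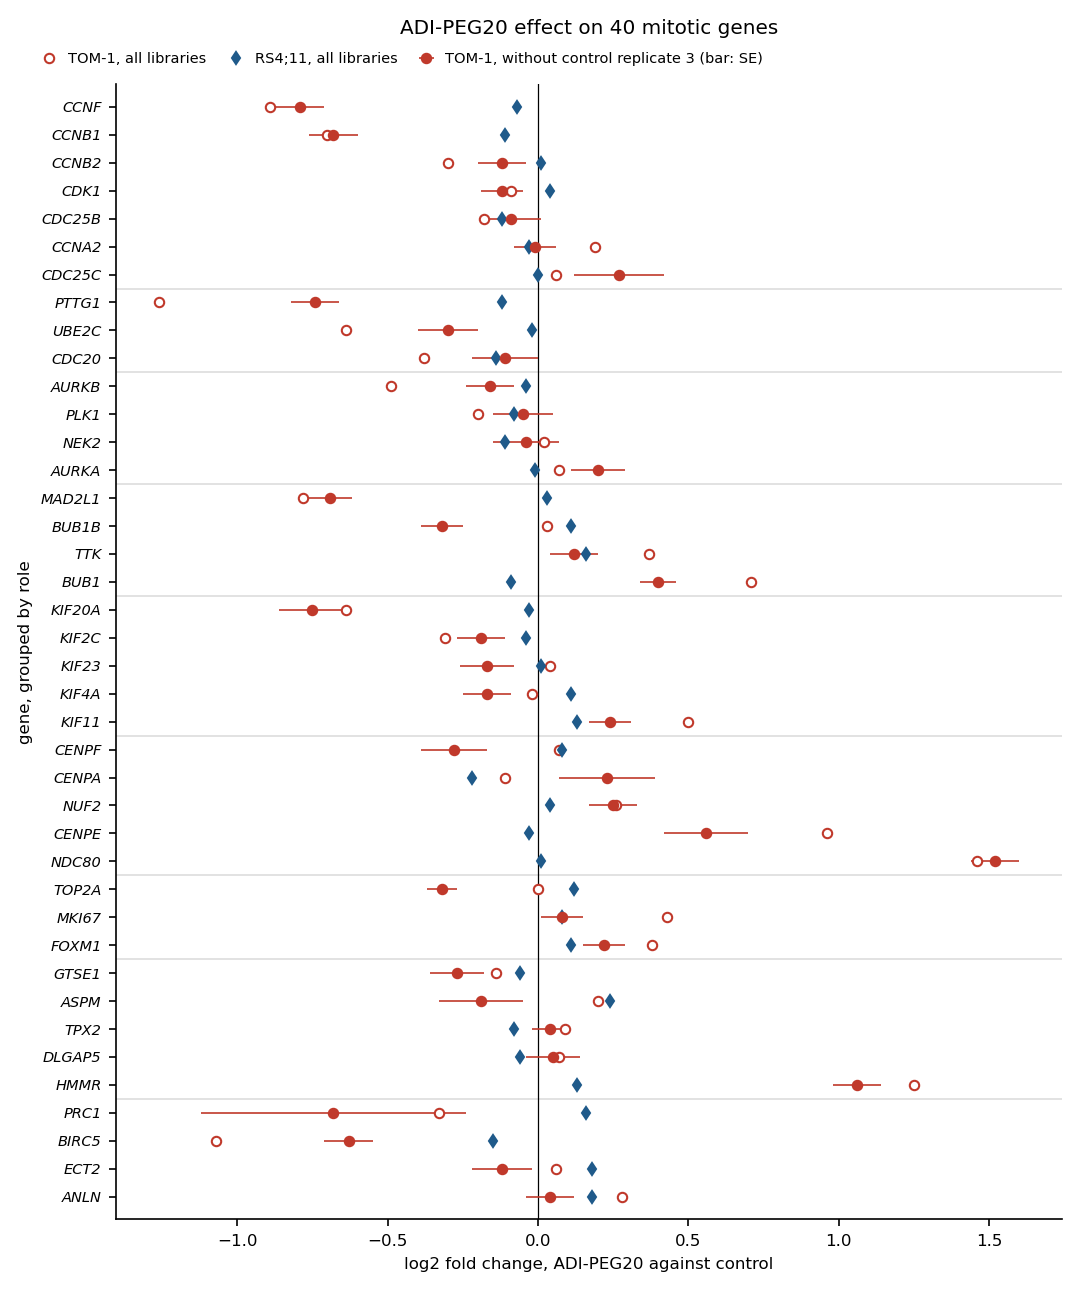
Log2 fold change, ADI-PEG20 against control (x axis), of each of the 40 genes (y axis, grouped by role, separated by grey lines). Open circles are TOM-1 with all libraries, filled circles TOM-1 without control replicate 3 with a bar of 1 SE on each side, and diamonds RS4;11, which span -0.22 to 0.24 while TOM-1 spans -1.26 to 1.46 with all libraries.

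The departure of TOM-1 control replicate 3 followed transcript length in these genes. Its log2 ratio to the mean of replicates 1 and 2 had a Pearson correlation of -0.78 with log exonic length and a Spearman correlation of -0.75 across the 40 genes, which share the same 3 libraries; over 17072 genes the values were -0.07 and -0.20. The 10 shortest genes had a median ratio of 0.59 and the 10 longest of -1.26 on the log2 scale, with PTTG1 at 1.21 and BIRC5 at 1.05, and CENPE at -1.86 and ASPM at -1.75. In that library 24 genes were below and 16 above the mean of the others. CCNB1 (0.06) and NDC80 (0.18) were among the genes it moved least. Its effect on the calls is shown by the values without it.

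**Figure D3:**
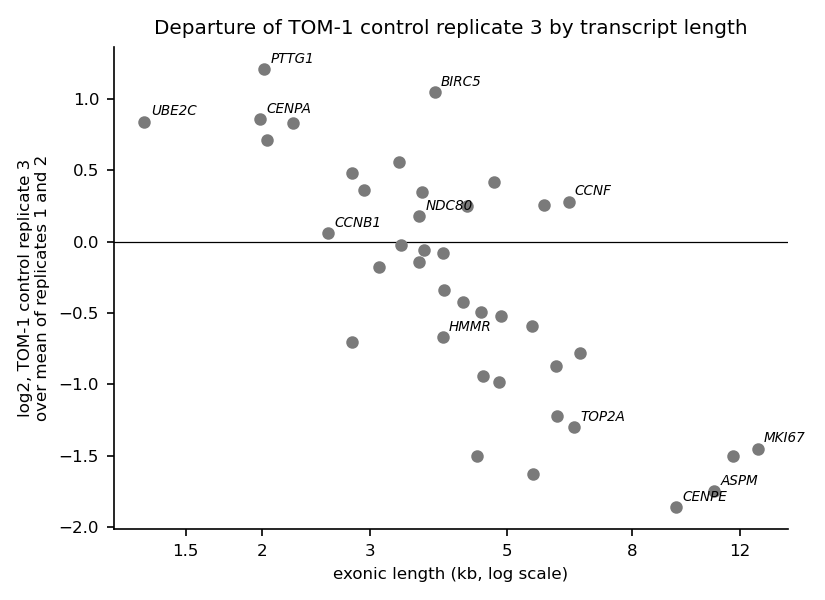
Exonic length in kb (x axis, log scale) against the log2 ratio of TOM-1 control replicate 3 to the mean of control replicates 1 and 2 (y axis) for the 40 genes, 1 point each. Short genes such as PTTG1 (1.21) lie above 0 and long genes such as CENPE (-1.86) below it.

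In RS4;11 none of the 40 genes was called. No gene of the whole table was called by edgeR in that line either (0 of 17349, 0%, with 325 genes at an unadjusted p below 0.05). DESeq2's Wald test called 0 of the 40 genes as well. The log2 fold changes of the 40 genes ran from -0.22 (CENPA) to 0.24 (ASPM), and none had an unadjusted p below 0.05. ECT2 had the lowest p (0.278), with 52.9, 55.0 and 58.7 CPM in control and 60.0, 63.1 and 65.8 CPM with ADI-PEG20, all treated libraries above all controls. Its log2 value was 0.18 (SE 0.16, edgeR adjusted p = 1). Without the departing TOM-1 library, which also enters the shared estimate of spread, 0 of 40 genes were called beside 0.317% of all genes. In that edgeR fit 4 of the 40 had an unadjusted p below 0.05, as had 2207 of all 18321 genes. The lowest p of the 40 was that of TOP2A (0.0163, adjusted p = 0.262). DESeq2's Wald test without that library called TOP2A (0.13, adjusted p = 0.0334). The libraries of both groups did not overlap for 7 genes upward and 1 downward, where 16.8% of all genes did not overlap, and for 7 and 2 in the fit without that library (16.3%).

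The 5 genes whose response differed between the lines had these values in RS4;11. NDC80 had 62.2, 68.1 and 66.6 CPM in control and 63.3, 65.1 and 70.2 CPM with ADI-PEG20, ranges that overlap (log2 0.01, SE 0.11). HMMR had 111.1, 102.7 and 119.9 CPM in control and 114.1, 118.9 and 132.0 CPM with the drug, overlapping as well (log2 0.13, SE 0.16). CCNB1 had 150.6, 152.2 and 167.6 CPM in control and 133.6, 145.9 and 156.3 CPM with ADI-PEG20 (log2 -0.11, SE 0.11). These groups overlapped too. CCNF had 133.2, 127.5 and 140.3 CPM in control and 116.3, 126.3 and 139.4 CPM with ADI-PEG20 (log2 -0.07, SE 0.12). MAD2L1 had 193.4, 185.0 and 198.1 CPM in control and 200.4, 202.7 and 186.7 CPM with ADI-PEG20 (log2 0.03, SE 0.12). Neither gene separated the treated from the control libraries in this line. BIRC5, also called in TOM-1, had 152.2, 146.7 and 165.1 CPM in control and 140.4, 145.6 and 133.2 CPM with ADI-PEG20. Its treated libraries lay below all controls, as in TOM-1, uncalled (log2 -0.15, SE 0.23). BUB1, KIF20A, PTTG1 and UBE2C overlapped, at -0.09, -0.03, -0.12 and -0.02. Scaled without TOM-1 control replicate 3, BUB1 was lower without overlap.

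CDK1 had 232.0, 219.7 and 227.5 CPM in RS4;11 control and 217.6, 236.8 and 242.4 CPM with ADI-PEG20. PLK1 had 156.5, 159.1 and 193.8 CPM in control and 157.8, 146.2 and 177.1 CPM with the drug, and AURKA 61.5, 58.0 and 67.9 CPM and 59.0, 62.2 and 65.0 CPM. For these 3 kinases the groups overlapped. TOP2A had 657.3, 640.8 and 645.5 CPM in control and 695.0, 682.3 and 740.4 CPM with ADI-PEG20, without overlap, and a log2 fold change of 0.12 (SE 0.25). MKI67 had 406.9, 439.3 and 484.9 CPM and 453.4, 432.8 and 523.7 CPM. Replicate 3 was the highest library for 31 of 40 genes in control and for 33 of 40 with ADI-PEG20, and the summed level was 5478, 5475 and 6039 CPM in control and 5533, 5549 and 6145 CPM with ADI-PEG20. Across the 40 genes the fold change in this line had a Pearson correlation of 0.54 and a Spearman correlation of 0.53 with log exonic length, all points resting on the same 6 libraries.

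The effect of ADI-PEG20 differed between the lines for 5 of 40 genes, beside 11.9% of all genes (5.89% higher, 6.05% lower), when the difference itself was tested. The difference was positive for NDC80 (log2 1.45, SE 0.16, edgeR adjusted p = 0.000268) and HMMR (1.12, SE 0.23, adjusted p = 0.0101). It was negative for CCNF (-0.82, SE 0.17, adjusted p = 0.0102), MAD2L1 (-0.81, SE 0.17, adjusted p = 0.00929) and CCNB1 (-0.59, SE 0.15, adjusted p = 0.0263). Without TOM-1 control replicate 3 these 5 genes were called again with values of 1.51, 0.93, -0.72, -0.72 and -0.57, and 12 of 40 genes were called beside 30.4% of all genes. The call for CCNB1 was lost on leaving out TOM-1 ADI-PEG20 replicate 1 or 3, RS4;11 control replicate 1 or 2, or RS4;11 ADI-PEG20 replicate 2 or 3 (adjusted p between 0.0541 and 0.0683), and with no filter on low counts (-0.60, adjusted p = 0.113).

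Another 7 genes differed between the lines only without control replicate 3. BUB1 had a difference of 0.50, against 0.80 with all libraries, and CENPE of 0.59, against 0.99; DESeq2's Wald test did not call that of CENPE (0.58, adjusted p = 0.091). On the negative side were KIF20A (-0.72, against -0.61), PTTG1 (-0.62, against -1.14), BIRC5 (-0.48, against -0.92), TOP2A (-0.45, against -0.13) and BUB1B (-0.43, against -0.08). The difference changed sign, uncalled in both fits, for CDC20 (-0.24 and 0.03), CDC25B (-0.06 and 0.03), PLK1 (-0.12 and 0.03), TTK (0.21 and -0.04), KIF23 (0.03 and -0.19), MKI67 (0.34 and -0.00) and ANLN (0.10 and -0.13). The remaining 21 genes were called in neither fit and kept their sign.

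Between the lines in control culture, 15 of the 40 genes were lower in TOM-1 than in RS4;11, 2 were higher and 23 were not called, beside 34.7% of all genes called (16.2% higher, 18.4% lower). By sign alone 34 of 40 had a log2 difference below 0, with a median of -0.36 against 0.01 over all genes. Without control replicate 3 the called genes were 29 (4 higher, 25 lower) beside 52.8% of genes (25.4% higher, 27.5% lower), and 31 lay below 0. The lines did not overlap for 2 genes upward and 21 downward (42.7% of all genes), and for 4 and 27 without that library (66.5%). UBE2C was the gene most in excess in TOM-1, by 3.88-fold (log2 1.96, SE 0.22, edgeR adjusted p = 2.26e-05), and by 3.07-fold (log2 1.62) without control replicate 3. It had 97.4, 103.0 and 179.8 CPM in TOM-1 control and 30.1, 29.7 and 38.0 CPM in RS4;11 control. ANLN was higher too, with 62.6, 61.1 and 33.9 CPM against 32.1, 32.4 and 30.6 CPM (log2 0.73, SE 0.19, adjusted p = 0.0105). Its value was 0.96 without TOM-1 control replicate 3. The ANLN call was lost without TOM-1 control replicate 1 or 2 or RS4;11 control replicate 3 (adjusted p between 0.0512 and 0.0575), and with only the libraries compared (0.76, adjusted p = 0.0746).

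With all libraries, the largest deficits of TOM-1 in control culture were those of HMMR, CENPA and KIF20A. HMMR, at 33.5 to 54.7 CPM in TOM-1 and 102.7 to 119.9 CPM in RS4;11, had a log2 difference of -1.25 (SE 0.17, edgeR adjusted p = 9.75e-05). Without control replicate 3 it was -1.06. CENPA had 14.1, 14.5 and 26.0 CPM in TOM-1 and 40.2, 29.7 and 45.8 CPM in RS4;11, without overlap (log2 -1.09, SE 0.24, adjusted p = 0.00362). Its value of -1.43 without control replicate 3 was the lowest of the 40 genes in that fit. KIF20A had 59.7, 53.2 and 44.5 CPM against 90.7, 102.2 and 121.6 CPM, without overlap as well (0.501-fold, SE 0.15 on the log2 scale, adjusted p = 0.000268). It was 0.538-fold without control replicate 3. CDK1 (-0.79, adjusted p = 5.25e-05) and PLK1 (-0.68, adjusted p = 0.00426) were also lower in TOM-1, and had -0.77 and -0.84 without control replicate 3. The PLK1 call was lost with only the libraries compared (-0.65, adjusted p = 0.0523), while CCNB1 was not called (-0.16, adjusted p = 0.287). TOP2A and MKI67 were not called with all libraries (-0.02 and 0.10) and were higher in TOM-1 without control replicate 3 (0.29 and 0.44, adjusted p = 6.93e-05 and 4e-05). With length offsets as well, MKI67 was not called (0.16, adjusted p = 0.0928).

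With ADI-PEG20, 34 of 40 genes again lay below 0, with a median of -0.35 against 0.02 over all genes. Called were 19 (3 higher, 16 lower) beside 47.2% of all genes (23.1% higher, 24% lower). Without TOM-1 control replicate 3 there were 31 (6 higher, 25 lower) beside 62.9% (31.4% higher, 31.5% lower). That library is in neither group and acts through the shared estimate of spread. NDC80 had changed sides: it was higher in treated TOM-1 than in treated RS4;11 by 1.06 (SE 0.11, edgeR adjusted p = 8.77e-06) and lower in control culture (-0.38, SE 0.11, adjusted p = 0.0171). The control culture call was lost with no filter on low counts (adjusted p = 0.121), with only the libraries compared (-0.35, adjusted p = 0.156) and with length offsets (-0.27, adjusted p = 0.0783). HMMR was at -0.12 (adjusted p = 0.574), with 107.1 to 114.9 CPM in TOM-1 and 114.1 to 132.0 CPM in RS4;11, ranges that overlap. UBE2C remained higher in TOM-1 (1.34), with 74.8, 91.4 and 78.1 CPM against 32.6, 30.0 and 33.5 CPM. ANLN did so as well (0.83, with 61.6, 66.7 and 63.2 CPM against 36.8, 34.7 and 35.9 CPM).

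The largest deficits of treated TOM-1 were those of KIF20A, PTTG1 and MAD2L1. KIF20A had 33.9, 30.9 and 36.0 CPM against 97.9, 94.8 and 114.9 CPM in treated RS4;11 (log2 -1.61, SE 0.15, edgeR adjusted p = 4.43e-06). PTTG1 had 54.9, 58.6 and 54.4 CPM against 120.5, 119.5 and 133.4 CPM (log2 -1.15, SE 0.27, adjusted p = 0.00381), and MAD2L1 was at -1.11 (SE 0.12, adjusted p = 1.01e-05). None of these 3 overlapped between the lines. In all, 6 genes upward and 27 downward did not overlap, where 70.6% of all genes did not (68.6% of those tested without TOM-1 control replicate 3). CCNB1, uncalled in control culture, was lower in treated TOM-1 (log2 -0.75, SE 0.11, adjusted p = 0.000119). These comparisons share their libraries with the treatment comparisons above.

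**Figure D4:**
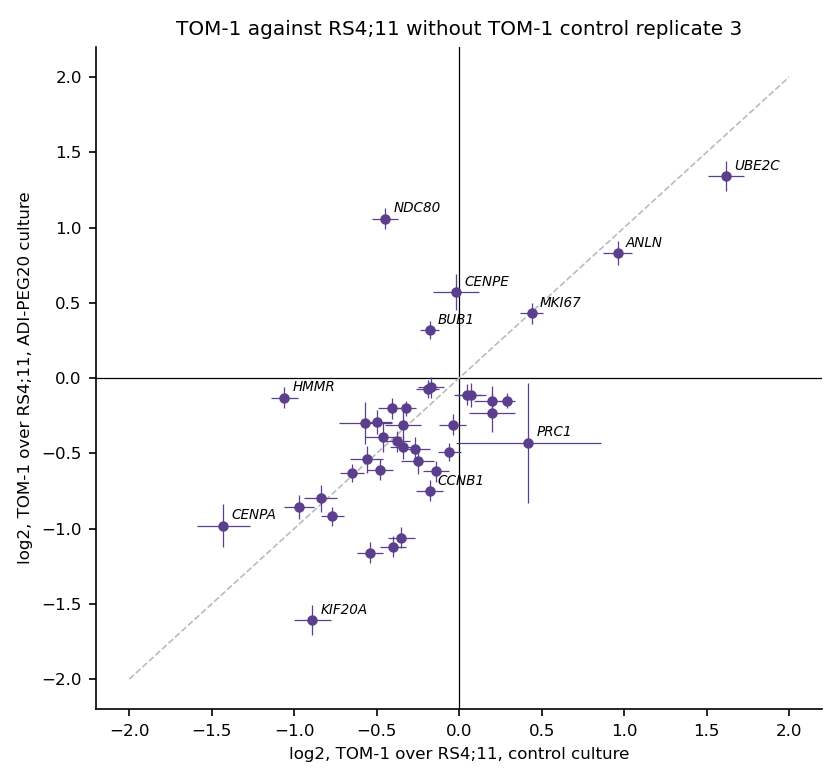
Log2 ratio of TOM-1 to RS4;11 in control culture (x axis) and with ADI-PEG20 (y axis) for the 40 genes without TOM-1 control replicate 3. Bars are 1 SE on each side and the dashed line marks equal ratios, so that NDC80 (-0.45 and 1.06) lies far above it and KIF20A (-0.89 and -1.61) below it.

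Levels between genes were compared as CPM per kb of exonic length. TOP2A was the highest of the 40 in every group, at 99.0 ± 42.3 in TOM-1 control (SD, n = 3; 123.4 ± 1.81, n = 2, without replicate 3), 98.9 ± 1.54 in TOM-1 with ADI-PEG20, 100.6 ± 1.32 in RS4;11 control and 109.7 ± 4.75 with ADI-PEG20 CPM per kb. CDC20 was next in RS4;11 control (94.4 ± 17.3), which does not differ from TOP2A beyond its spread, followed by CCNA2 (81.3 ± 2.18) and TPX2 (71.8 ± 1.77). UBE2C stood in second place in TOM-1 control (98.6 ± 35.8, and 77.9 ± 3.12 without replicate 3, in the same place) and in place 23 in RS4;11 control (25.4 ± 3.61). NDC80 moved from place 27 in TOM-1 control (14.0 ± 1.35) to place 9 with ADI-PEG20 (38.4 ± 0.572), and KIF20A from place 29 (13.3 ± 1.92) to place 36 (8.49 ± 0.652). In control replicates 1 and 2 alone, NDC80 stood in place 30 (13.4 ± 1.20) and KIF20A in place 27 (14.3 ± 1.16). PRC1 was lowest in all 4 groups. The median coefficient of variation of the 40 genes between libraries was 24.8% in TOM-1 control, 4.05% in treated TOM-1, 7.33% in RS4;11 control and 5.81% in treated RS4;11.

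Other genes of the same processes, taken from lists chosen for this description, also moved both ways in TOM-1 and were not called in RS4;11 in any list. Beside the counts of every list below stand 15.9% of all tested genes called higher and 15.9% lower in TOM-1, and 21.8% and 19.8% without control replicate 3. Of 34 further kinetochore and centromere genes, 10 rose and 6 fell, and 14 and 9 without control replicate 3. CENPU, of the inner kinetochore, rose from 56.4 ± 4.17 to 133.5 ± 6.89 CPM (SD, n = 3, with log2 1.24 and edgeR adjusted p = 1.56e-05), with SKA1 (1.01) and CENPL (1.23) rising as well. Without control replicate 3 these log2 values were 1.30, 1.14 and 1.02. Of 20 condensin and cohesin genes 6 rose and 5 fell: SGO1, the protector of centromeric cohesion, rose from 16.2 ± 5.13 to 43.1 ± 1.30 CPM (log2 1.41), and the cohesion factor CDCA5 and the condensin subunit NCAPD2 fell (-0.76 and -0.68). Without control replicate 3 the counts were 9 and 7, and the values of SGO1, CDCA5 and NCAPD2 were 1.20, -0.53 and -0.85.

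Of 26 other spindle and kinesin genes 4 rose and 8 fell (5 and 11 without control replicate 3). STMN1, a microtubule destabiliser, fell from 1022 ± 283.4 to 379.0 ± 13.3 CPM (log2 -1.43, edgeR adjusted p = 7.08e-05), KIFC1 fell by 0.54 and DEPDC1 rose by 0.70. Control replicate 3 had 1349 CPM of STMN1, against 870.2 and 847.0 in its fellows. With that library left out the log2 values were -1.18, -0.53 and 0.58. Of 21 genes of the APC/C and its regulators 3 rose and 6 fell (5 and 6), with TRIP13, which takes MAD2 complexes apart, at -0.88, ANAPC5 at -0.43 and CDC27 at 0.83. Without control replicate 3 they were at -0.88, -0.43 and 0.62. Of 17 genes of mitotic entry and exit 3 rose and 4 fell (5 and 7), with CKS2, a small CDK-binding protein, at -1.40, and MASTL, the Greatwall kinase, and BORA, an activator of AURKA, at 0.84 and 1.09. CKS2, MASTL and BORA were at -1.08, 0.68 and 0.85 without control replicate 3.

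Regulators of mitotic genes gave 6 rises and 4 falls among 17 (7 and 6). CDKN1A, the CDK inhibitor p21, rose from 103.6 ± 20.6 to 345.1 ± 15.7 CPM (log2 1.74, edgeR adjusted p = 7.16e-06), TFDP1, the partner of E2F factors, fell by 1.11, and LIN9, of the MuvB complex, rose by 0.73. Without control replicate 3 these log2 values were 1.90, -1.21 and 0.74. Of 30 genes of DNA replication and G1/S, 19 fell and 1 rose in TOM-1, where 15.9% of all genes fell. Without control replicate 3, 24 fell and 2 rose, where 19.8% of all genes fell. The median was -0.57 with all libraries, against 0.03 for the 40 mitotic genes and 0.05 for all genes. Without that library it was -0.64, against -0.11 and 0.00. MCM5, a subunit of the replicative helicase, fell from 308.1 ± 81.4 to 97.2 ± 7.45 CPM (log2 -1.66, edgeR adjusted p = 3.73e-05), with CCNE1 (-1.45) and FEN1 (-1.41) falling as well. Control replicate 3 had 402.1 CPM of MCM5, against 265.4 and 257.0 in its fellows. With that library left out the log2 values were -1.43, -1.28 and -1.17. The difference between this list and the mitotic genes was not tested.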

How the data were processed

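Poly(A) RNA was sequenced from 12 libraries, 3 in each of 4 groups taken from the sample titles, and columns were matched to samples through the descriptions. The authors deposited 1 table of raw counts per Ensembl gene, not normalized. Per the submitters' processing notes STAR, SAMtools and featureCounts were used with hg38; versions, strand setting and annotation release are not given in the sources used here. Symbols were found for 60463 of 60664 identifiers. Lengths, positions and overlaps came from GENCODE 29 on GRCh38, promoters from RefSeq on GRCh38.p14.

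The analysis used edgeR 4.0.16 under R 4.3.3: filterByExpr (17349 genes kept, 18321 without TOM-1 control replicate 3), TMM scaling, 1 group-means model over all libraries, glmQLFit and glmQLFTest, and Benjamini-Hochberg adjustment over all tested genes. SE is the log2 fold change divided by the square root of F. Levels are TMM-scaled CPM computed from the counts, and libraries with 3 counts or fewer of a gene are at the floor. The 5 comparisons were ADI-PEG20 against control in each line, their difference, and TOM-1 against RS4;11 in each culture. The fit was tested on simulated data. Alternatives were DESeq2 size factors, no filter, DESeq2 1.42.0, a replicate block, only the libraries compared, and each library left out. Offsets for each library's trend with length (lowess, span 0.3), and the alternatives repeated without TOM-1 control replicate 3, were added after seeing the data. Figures were drawn with matplotlib 3.10.9.

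The members, the other lists and the rules were chosen with earlier results of these data known. Values in every library are given for CDK1, CCNB1, PLK1, AURKA, TOP2A and MKI67, and in each comparison for the 3 genes with the highest and the 3 with the lowest fold change among those called in both fits (all libraries, and that library left out). Genes called in 1 of these fits only or with opposite signs are named with both values for TOM-1 and the difference, and in RS4;11 the gene of lowest p. From each other list up to 3 genes of lowest p in TOM-1 are named; per-library values of UBE2C, KIF20A and NUF2 in TOM-1, and of the genes picked from the level ranking, were added after their values were seen. The floor covers counting error only. No pair of libraries agreed within sampling noise (chi-square per degree of freedom at least 4.98).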

Additional observations from a re-analysis of the deposited data

Results flagged for a closer look

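The response to ADI-PEG20 of 5 genes differed between TOM-1 and RS4;11 by edgeR's test of the difference itself, adjusted over all genes. NDC80 differed by 1.45 on the log2 scale, rising in 3 of 3 treated TOM-1 libraries above all controls, with overlapping groups in RS4;11. HMMR differed by 1.12 and rose in 3 of 3 treated TOM-1 libraries. CCNF differed by -0.82, MAD2L1 by -0.81 and CCNB1 by -0.59, each with 3 of 3 treated TOM-1 libraries below all controls. Leaving out TOM-1 control replicate 3 kept all 5 calls, and the loss of the CCNB1 call on leaving out other libraries, or with no filter on low counts, is described with that result.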

How the results depend on the processing

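Counts of called genes moved by more than 1.5 times when TOM-1 control replicate 3 was left out and in a few other fits. The share of all genes called by the same test rose too without that library. It went from 31.9% to 41.6% in TOM-1, 0% to 0.317% in RS4;11 and 11.9% to 30.4% in the difference. In control culture it went from 34.7% to 52.8%, and in ADI-PEG20 culture from 47.2% to 62.9%. For the other fits that share is not given here, so their counts are not read as particular to these genes. TOM-1 had 10 called genes, and 6 in a fit on its own 6 libraries. With that library left out it had 18 by the same test, 18 with length offsets, 18 by DESeq2's Wald test, 19 with DESeq2 size factors, 21 with the replicate block and 22 with only the libraries compared. The difference between the lines had 5, 8 by DESeq2's Wald test and, without that library, 12, 13 with length offsets or DESeq2 size factors, 11 by DESeq2 and 14 with the block. Control culture had 17, 11 with no filter, 7 with only the libraries compared and, without that library, 29, 27 with length offsets, 31 with DESeq2 size factors or the Wald test, 30 with the block and 30 with only the libraries compared. ADI-PEG20 culture had 19, 31 with only the libraries compared and, without that library, 31, 30 with length offsets, 32 with DESeq2 size factors, 31 by DESeq2 and 32 with the block. RS4;11 had 0 throughout but for 1 by DESeq2 without that library. Leaving out 1 library at a time gave 8 to 18 in TOM-1, 0 in RS4;11, 4 to 12 in the difference, 12 to 29 in control culture and 17 to 31 in ADI-PEG20 culture; the highest count on leaving out any library other than TOM-1 control replicate 3 was 14, 0, 7, 19 and 23. The summed level in treated TOM-1 was 4929 CPM by TMM, 4750 with DESeq2 size factors and 5282 when scaled to all counts; the cause was not tested.

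The labels state no pairing of samples by replicate number, and the main fit uses none. Correlation of same-numbered deviations was -0.06 to -0.01 in TOM-1, where 0 of 6 libraries matched their own number best. In RS4;11 it was 0.03 to 0.14, and 5 of 6 libraries did so. Between the lines it was 0.02 to 0.05 in control culture (2 of 6) and 0.02 to 0.03 with ADI-PEG20 (6 of 6). The cause of these matches was not tested. With the replicate block and all libraries, 10 genes were called in TOM-1, 0 in RS4;11, 5 in the difference, 16 in control culture and 20 in ADI-PEG20 culture. The share of all genes called with the block is not given here.

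Signs that reversed belonged to values not called with all libraries. AURKA in TOM-1 (0.07) reached -0.03 to 0.20 with 1 library left out, and in RS4;11 (-0.01) -0.06 to 0.06, with 0.00 unfiltered and 0.01 and 0.00 with length offsets. AURKA in the difference (0.08) ran from -0.02 to 0.21. TOP2A in TOM-1 (-0.00) ran from -0.32 to 0.17, with 0.04 under the replicate block, and in the difference (-0.13) from -0.45 to 0.04. PLK1 in RS4;11 (-0.08) ran from -0.16 to 0.02. PLK1 in the difference (-0.12) ran from -0.26 to 0.03, and without TOM-1 control replicate 3 was 0.04 with length offsets, 0.02 with DESeq2 size factors or DESeq2 and 0.00 with the block. MKI67 in TOM-1 (0.43) was -0.09 with length offsets and that library out, and in the difference (0.34) it ran from -0.00 to 0.52 and, without that library, was -0.09 with length offsets, -0.02 with DESeq2 size factors or DESeq2 and -0.05 with the block. In control culture TOP2A (-0.02) ran from -0.27 to 0.29, was 0.02 with length offsets and 0.00 with only the libraries compared, and without that library 0.26, 0.27, 0.27, 0.30 and 0.27 with length offsets, DESeq2 size factors, DESeq2, the block and only the libraries compared. MKI67 there (0.10) ran from -0.15 to 0.44. The causes were not tested. PRC1, at 17 to 88 counts per library, had an SE of 0.51 in TOM-1, and depth limits what can be said of it.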
